A study of Homo sapiens with 13 samples.

Results

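A set of 8 receptor genes for the neurotransmitters GABA and acetylcholine were followed in 2 established small cell lung cancer (SCLC) cell lines, H82 and H146. They were taken by symbol from the tables of both lines, as 8 of the 56831 genes listed: the GABA-A receptor subunits GABRA2, GABRA5, GABRB1 and GABRB2, the GABA-B receptor subunits GABBR1 and GABBR2, and the muscarinic acetylcholine receptors CHRM3 and CHRM4. GABRA2 and CHRM4 were chosen by their change in TPM between treated and untreated cells in these same libraries, so their values are given as a description, with no test. SCLC cells carry many neuronal and neuroendocrine genes, and the study asked how inhibiting the chromatin remodelling ATPases SMARCA4 and SMARCA2 with the small molecule FHD-286 alters that state. Of the 13 RNA libraries, 6 were of H82 (3 untreated, 3 treated) and 7 of H146 (3 untreated, 4 treated). Treated cells received 100 nM FHD-286 for 14 days, both lines were labelled wild type, and the untreated cells were labelled as having no treatment, with no vehicle named. Each line stands for 1 tumour, and nothing in the labels says that the libraries of a group came from separate cultures, so p values measure only the spread between these libraries, which may be technical.

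GABA-A receptors are chloride channels built of 5 subunits, most often alpha, beta and gamma, and the alpha subunit does much to set where the receptor sits and which drugs act on it. GABA-B receptors are obligate pairs in which GABBR1 binds GABA and GABBR2 couples to Gi/o proteins. Of the muscarinic receptors, CHRM3 and CHRM5 signal through Gq to phospholipase C and intracellular calcium, and CHRM2 and CHRM4 signal through Gi/o to lower cyclic AMP. Muscarinic signalling has been studied in SCLC because the cells can make and release acetylcholine.

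The genes lie on 7 chromosomes (hg38, GENCODE 44). GABRA2 (ENSG00000151834.16) is at chr4:46243548-46475230 on the minus strand, with GABRB1 (ENSG00000163288.14) in the same cluster at chr4:46993723-47426447 on the plus strand. GABRA5 (ENSG00000186297.12) is at chr15:26866911-26949208, plus strand. GABRB2 (ENSG00000145864.14) is at chr5:161288429-161549044, minus strand. The GABA-B genes GABBR1 (ENSG00000204681.11) and GABBR2 (ENSG00000136928.7) are at chr6:29555629-29633976 and chr9:98288109-98708935, both on the minus strand. CHRM3 (ENSG00000133019.12) is at chr1:239386565-239915452 on the plus strand, and CHRM4 (ENSG00000180720.8) is at chr11:46383789-46391776 on the minus strand. Exon bases shared with a gene on the opposite strand, whose reads could not be told apart without strand, numbered 143 of 16898 for GABRA2, 95 of 7343 for GABBR2 and 269 of 15173 for CHRM3 (with the antisense RNA CHRM3-AS2), and 668 bases of GABRA2 were shared with a long noncoding RNA on its own strand. The shared exon bases of GABBR1 and CHRM4 are given with those genes below.

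Sequence around the start sites was searched for a few motifs, because several of these genes are known for neuronal or housekeeping control elements. The first is the RE1 element, the DNA site of REST, which represses neuronal genes. CHRM4 was the 1 gene of the 8 with a match to it within 5000 bases of its start, a match that 407 of 20033 protein-coding genes (2.03%) also had. It lies 940 bases upstream of the gene start, on the plus strand of hg38 at chr11:46392696-46392751 as printed, with the match in capitals.
CHRM4: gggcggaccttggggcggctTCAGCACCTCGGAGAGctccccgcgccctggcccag

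RefSeq promoters (GRCh38.p14, all of the same length) were found for 7 of the 8 genes, with 3 start sites for GABRA2, and none for GABRA5. The 2 beta subunit promoters are shown together because they hold the same motif at nearly the same place. Both contained the NRF1 core GCGCATGC, read on both strands, so that overlapping matches form the run in capitals, which ends a few bases before the start site of each. Of all 35116 promoters, 3.05% held this core. The stretches are chr4:47031517-47031616 on the plus strand and chr5:161546676-161546775 on the minus strand.
GABRB1: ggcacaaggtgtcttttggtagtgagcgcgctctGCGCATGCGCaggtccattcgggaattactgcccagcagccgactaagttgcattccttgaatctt
GABRB2: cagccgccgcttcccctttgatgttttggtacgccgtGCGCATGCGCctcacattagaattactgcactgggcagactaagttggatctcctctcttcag

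Beside that motif, the 2 stretches shared the 10-base runs gaattactgc and gactaagttg. GABBR1 held the cyclic AMP response element TGACGTCA, which 1.85% of promoters held, at chr6:29628044-29628103 on the minus strand, and it is shown because GABA-B receptors act on cyclic AMP themselves. GABRA2, chosen for its rise in H82, held the E-box CAGCTG, a site type of neuronal basic helix-loop-helix factors, at 2 of its 3 start sites. Its share over all promoters was 17.9%, so the match is common, and the stretch at 1 of these start sites (chr4:46389360-46389414, minus strand) is shown.
GABBR1: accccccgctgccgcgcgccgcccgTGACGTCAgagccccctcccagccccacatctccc
GABRA2: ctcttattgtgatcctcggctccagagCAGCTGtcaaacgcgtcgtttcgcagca

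The E-box CAGATG, in 14.7% of promoters, was in none of those found for the 8 genes, and TATAAA, in 11.5%, was in 1 start site of GABRA2. No binding was measured in these libraries, and these matches describe letters only.

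The values were TPM, a transcript abundance for which reads are divided by gene length and every library is brought to 1 common sum. Reads per library are not in the tables, so depth is unknown and no counting interval is given. The test was limma on log2(TPM + 1) within each line. A gene was tested if 3 or more libraries of that line had 1 TPM or more, and the Benjamini-Hochberg adjusted p is over all genes tested (two-sided, threshold 0.05). A log2 fold change on this scale understates the change of low genes. At this threshold 45.5% of the 19766 genes tested were lower and 13.1% higher in treated H82, and 15.5% of 19581 were lower and 32.4% higher in treated H146. Treated and untreated libraries did not overlap for 67.8% (H82) and 52.9% (H146) of these genes. All genes together had a median log2 fold change of -0.56 in H82 and 0.25 in H146. After each library was rescaled by the median of ratios it was -0.14 and -0.02, so each change below is also given relative to the median.

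Some libraries stood apart. Treated H82 replicate 1 differed from replicates 2 and 3 by a median absolute log2 ratio of 0.577 and 0.545, against 0.191 between those 2. Treated H146 fell into the pairs 1 and 2 (0.292) and 3 and 4 (0.129), with 0.326 to 0.51 between the pairs. For 16 genes marking H146 (at least 50 TPM in every H146 library and at most 0.1 TPM in untreated H82), the median level in treated H82 was 0.266%, 3.53% and 0.0912% of that in untreated H146, highest in replicate 2. The 8 SCLC identity genes summed to 1080 to 1210 TPM in untreated and 1250 to 1620 TPM in treated H82, and to 3440 to 3920 and 2550 to 2720 TPM in H146. This sum does not speak for each gene. In H82 SYP (mean 202 to 46.8 TPM), CHGA (143 to 32.6 TPM) and NEUROD1 (229.7 to 83.5 TPM) fell. UCHL1, the largest term, rose (412 to 896 TPM). INSM1 and GRP rose too, both highest in treated replicate 2 (296.1 and 56.42 TPM). The means of NCAM1 and DLL3 were also higher, with overlapping groups. In H146 UCHL1 (2002 to 1476 TPM), INSM1 (1230 to 869.8 TPM), DLL3 and GRP fell. SYP, CHGA and NCAM1 overlapped between groups there, and NEUROD1 was not tested. The 8 markers of immune, endothelial, stromal and lung epithelial cells summed to 0.905 to 1.52 TPM in untreated and 4.02 to 27.7 TPM in treated H82, and to 12.9 to 17.3 and 17.9 to 25.5 TPM in H146. SCGB1A1 was at 0 in every H82 library, and SFTPC in every untreated library of both lines. Their part in the results below was not tested.

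**Figure D1:**
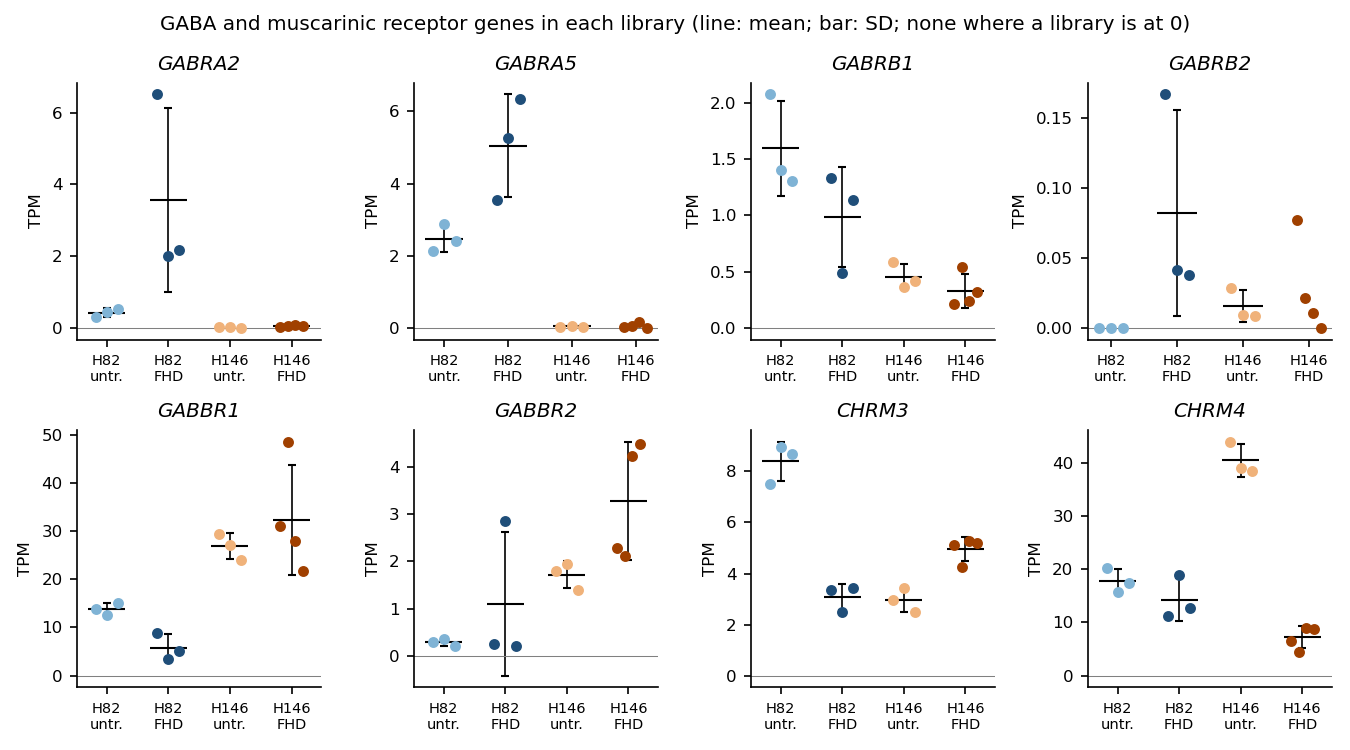
TPM of each receptor gene (vertical axis, a separate scale per gene) in the 13 libraries, with untreated (untr.) and FHD-286 (FHD) libraries of H82 in blue and of H146 in orange. Points are libraries, the line is the group mean and the bar the SD, left out where a library is at 0. GABRA2 is high in treated H82 alone, CHRM4 drops in H146, and CHRM3 falls in H82 and rises in H146.

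Among the receptor genes tested, treated H82 had lower GABBR1 and CHRM3 and higher GABRA5, and treated H146 had higher CHRM3. That is 2 lower and 1 higher of 4 tested in H82, and 0 lower and 1 higher of 3 tested in H146, by limma, with GABRA2 and CHRM4 left out of both counts. At an unadjusted p under 0.05, the counts were 2 lower and 1 higher in H82 and 0 lower and 2 higher in H146. With so few genes these counts are not set apart from the shares over all genes. In bulk RNA, fewer cells of a type and less RNA per cell cannot be told apart.

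GABRA2 encodes the alpha2 subunit of the GABA-A receptor, common at forebrain synapses. In H82 it was at 0.305, 0.456 and 0.532 TPM in the untreated libraries and at 6.51, 2.00 and 2.17 TPM in the treated ones. Every treated library lay above every untreated one, and replicate 1 stood well above the other treated libraries. The mean went from 0.431 ± 0.115 to 3.56 ± 2.56 TPM (SD, n = 3 each), a ratio of means of 8.26 and a log2 difference of 1.54 (SE 0.37), or 2.10 above the median of all genes. Without treated replicate 1 the log2 difference was 1.11. The gene passed the filter on low values only through its treated libraries. In H146 GABRA2 was near the bottom of the scale in all libraries, at 0.024, 0.016 and 0 TPM untreated and 0.037, 0.054, 0.081 and 0.050 TPM treated.

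GABRA5 encodes the alpha5 subunit, which is found largely outside synapses and carries tonic inhibition in hippocampus. In H82 it was at 2.12, 2.87 and 2.42 TPM untreated and 3.54, 5.28 and 6.36 TPM treated. The groups did not overlap, and here replicate 1 was the lowest treated library, whereas for GABRA2 it was the highest. The mean rose from 2.47 ± 0.377 to 5.06 ± 1.42 TPM (SD, n = 3 each), a log2 fold change of 0.78 (SE 0.24, 95% CI 0.21 to 1.35, limma adjusted p = 0.0273), 1.34 above the median of all genes. The direction held under scaling by the median of ratios, at 1.16 (adjusted p = 0.00515). The call was lost without untreated replicate 1, 2 or 3 (adjusted p = 0.107, 0.0563 and 0.0909) and without treated replicate 2 or 3 (adjusted p = 0.0715 and 0.0864). In H146 GABRA5 was nearly silent, at 0.023, 0.069 and 0.042 TPM untreated and 0.026, 0.051, 0.155 and 0 TPM treated (two-sided exact permutation p = 0.914).

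The alpha subunit with the most RNA in both lines was GABRA3, which is no member of the list. It was at 14.1 to 15.3 TPM in untreated and 7.84 to 14.0 TPM in treated H82 (limma adjusted p = 0.165). Of the summed alpha subunit TPM in H82, GABRA2 made up 1.83%, 2.42% and 2.95% untreated and 36.0%, 10.3% and 9.53% treated. GABRA5 made up 12.7%, 15.2% and 13.4% untreated and 19.5%, 27.2% and 27.9% treated. The share of GABRA3 was 81.0% to 84.2% untreated and 43.3% to 61.6% treated, so the rarer subunits took a larger part of a sum that stayed between 16.7 and 22.8 TPM. The ratio of GABRA5 to GABRA3, which a single factor per library cannot alter, was 0.151, 0.188 and 0.162 untreated and 0.451, 0.445 and 0.453 treated. The 3 treated libraries lay close together in this ratio, including replicate 1. In H146 GABRA3 kept 93.8% to 95.9% of the alpha sum in all 7 libraries.

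**Figure D2:**
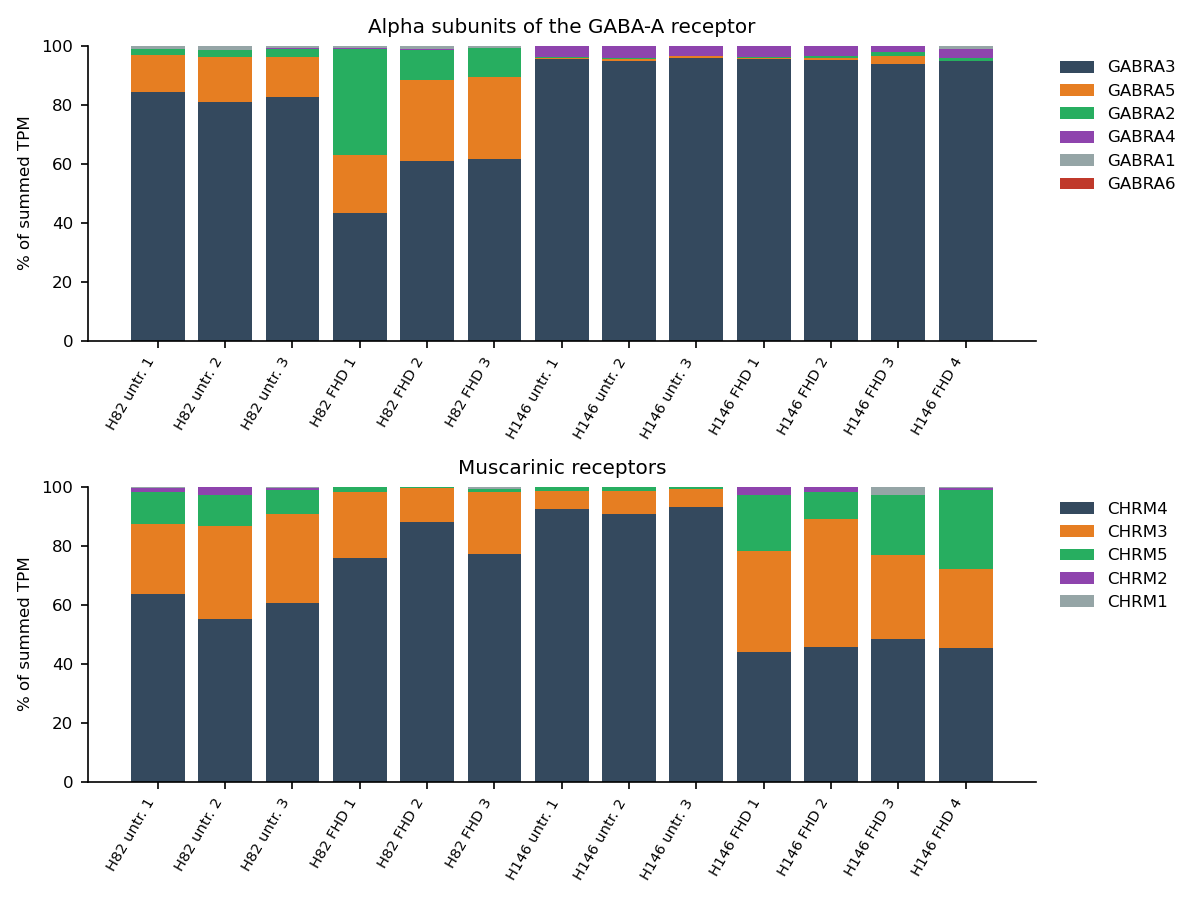
Share (%) of each gene in the summed TPM of the alpha subunits of the GABA-A receptor (top) and of the 5 muscarinic receptors (bottom) in each library, untreated (untr.) or under FHD-286 (FHD). GABRA2 and GABRA5 take more of the alpha sum in treated H82, and CHRM4 falls from 90.6% to 93.2% to 43.8% to 48.4% of the muscarinic sum in treated H146.

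GABRB1 and GABRB2 encode beta subunits, which form part of the GABA binding site and are needed for the channel to reach the surface. GABRB1 in H82 was at 2.08, 1.40 and 1.30 TPM untreated and 1.33, 0.486 and 1.14 TPM treated. The groups overlapped. The log2 difference was -0.40 (SE 0.25, 95% CI -0.99 to 0.18, limma adjusted p = 0.203), 0.16 above the median of all genes, and it was 0.55 (adjusted p = 0.0901) after quantile normalization. In H146 GABRB1 was below the filter, at 0.584, 0.367 and 0.417 TPM untreated and 0.210, 0.543, 0.239 and 0.319 TPM treated, with overlapping groups (exact permutation p = 0.229).

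GABRB2 was listed at 0 in every untreated H82 library and at 0.167, 0.042 and 0.038 TPM in the treated ones. The exact permutation p was 0.1, the smallest that 3 libraries against 3 can give, and no fold is given against a group at 0. In H146 it was at 0.029, 0.010 and 0.009 TPM untreated and 0.077, 0.021, 0.011 and 0 TPM treated, with overlapping groups (exact permutation p = 0.8). Both promoters that share the NRF1 core and the 10-base runs printed above thus belonged to genes at or under 2.08 TPM in all libraries, GABRB1 being the higher in each.

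GABRG3, of the same cluster as GABRA5, stayed at or under 0.049 TPM in all libraries. Of the neighbours of GABRA2 and GABRB1 on chromosome 4, GABRG1 stayed at or under 0.032 TPM and GABRA4 at or under 0.382 TPM.

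Of other GABA-A genes past the filter, GABRE and GABRQ were lower in treated H82. GABRE, the epsilon subunit, went from 19.7 to 20.7 TPM to 0.866 to 1.51 TPM, a log2 fold change of -3.27 (SE 0.19). GABRQ, the theta subunit, went from 34.9 to 35.8 TPM to 1.90 to 3.93 TPM, a log2 fold change of -3.15 (SE 0.24). The limma adjusted p of these genes was 0.000102 and 0.000157. Epsilon and theta together thus went from 55.2 to 55.7 TPM to 3.14 to 5.44 TPM. GABRR3, a rho subunit, went from 1.98, 2.37 and 2.12 TPM to 0.210, 0.268 and 0.246 TPM in H82, where it passed the filter only through the untreated libraries, so no test of it is given. In H146 GABRR2 had a log2 difference of 0.25 (adjusted p = 0.405), and GABRA3 one of -0.33 (adjusted p = 0.137).

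GABBR1, the GABA-binding subunit of the GABA-B receptor, was at 13.9, 12.6 and 15.1 TPM in untreated and 8.83, 3.34 and 5.12 TPM in treated H82. Every treated library lay below every untreated one. The mean fell from 13.9 ± 1.21 to 5.76 ± 2.80 TPM (SD, n = 3 each), a log2 fold change of -1.21 (SE 0.30, 95% CI -1.93 to -0.50, limma adjusted p = 0.0120), or -0.66 relative to the median of all genes. The call did not hold under scaling by the median of ratios (-0.77, adjusted p = 0.0824) or quantile normalization (-0.48, adjusted p = 0.170). It was -1.52 without treated replicate 1 (adjusted p = 0.000981) and -0.93 without treated replicate 2 (adjusted p = 0.0250). GENCODE 44 gives GABBR1 722 exon bases in common with UBD (same strand) and OR2I1P (opposite strand), out of 8454. UBD was listed at 0 in all 13 libraries, and OR2I1P at 0 in every H82 library and at or under 0.161 TPM in H146. The part of this overlap in the GABBR1 values was not tested.

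In H146 GABBR1 was at 29.4, 27.2 and 23.97 TPM untreated and 31.0, 48.6, 27.9 and 21.8 TPM treated. The treated libraries held both the highest and the lowest value, so the groups overlapped. The log2 difference was 0.20 (SE 0.24, 95% CI -0.35 to 0.76, adjusted p = 0.515), and its sign turned under the median of ratios (-0.11) and without treated replicate 2 (-0.0079).

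GABBR2, the G protein-coupling subunit, was at 0.302, 0.374 and 0.215 TPM in untreated and 0.250, 2.86 and 0.217 TPM in treated H82. Treated replicate 2 alone was high, the library with the highest level of the genes marking H146. The exact permutation p was 0.8, and without that library the log2 difference was -0.07 (exact permutation p = 0.6). In H146 GABBR2 was at 1.81, 1.95 and 1.41 TPM untreated and 2.27, 2.12, 4.23 and 4.47 TPM treated. The groups did not overlap, and the treated libraries followed the pairs seen over all genes, with replicates 3 and 4 well above replicates 1 and 2. The mean was 1.72 ± 0.281 (SD, n = 3) and 3.28 ± 1.25 TPM (SD, n = 4), a log2 difference of 0.61 (SE 0.25, 95% CI 0.03 to 1.18) that missed the threshold (limma adjusted p = 0.0753). It passed without treated replicate 2 (0.74, adjusted p = 0.0236) and without treated replicates 1 and 2 (0.98, adjusted p = 0.00162), and was 0.24 without replicates 3 and 4 (adjusted p = 0.389).

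Because the receptor needs both subunits, their ratio was also taken within each library. GABBR1 exceeded GABBR2 in every library. The ratio was 46.0, 33.8 and 70.2 in untreated and 35.3, 1.17 and 23.6 in treated H82. It was 16.3, 14.0 and 17.0 in untreated and 13.7, 22.9, 6.59 and 4.88 in treated H146, so the scarcer subunit was GABBR2 throughout, and least so in treated H82 replicate 2.

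CHRM3, the Gq-coupled muscarinic receptor of glands and smooth muscle, was at 7.52, 8.97 and 8.70 TPM in untreated and 3.34, 2.51 and 3.43 TPM in treated H82. The groups were well apart, with each group tight. The mean fell from 8.40 ± 0.773 to 3.09 ± 0.506 TPM (SD, n = 3 each), a log2 fold change of -1.20 (SE 0.19, 95% CI -1.66 to -0.75, limma adjusted p = 0.00183), or -0.65 relative to the median of all genes. It held under the median of ratios (-0.79, adjusted p = 0.0124) and with any 1 library left out, and did not hold under quantile normalization (-0.31, adjusted p = 0.196).

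In H146 CHRM3 was at 2.97, 3.41 and 2.48 TPM untreated and 5.11, 4.26, 5.28 and 5.18 TPM treated. Again the groups did not overlap, now with the treated libraries above. The mean rose from 2.95 ± 0.466 (SD, n = 3) to 4.96 ± 0.470 TPM (SD, n = 4), a log2 fold change of 0.59 (SE 0.16, 95% CI 0.22 to 0.97, limma adjusted p = 0.0171), 0.35 above the median of all genes. The call was lost under the median of ratios (0.34, adjusted p = 0.0819) and quantile normalization (0.32, adjusted p = 0.0994), without untreated replicate 1 (adjusted p = 0.0608) or 3 (adjusted p = 0.0653), and without treated replicates 3 and 4 (adjusted p = 0.0719).

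A single fit over all 13 libraries, with a term for line by treatment, tested whether a gene changed differently in H82 and H146, and 58.3% of the 15675 genes tested passed. The change of CHRM3 in H82 minus that in H146 was -1.80 (log2, SE 0.23, 95% CI -2.30 to -1.29, limma adjusted p = 4.52e-05), and it passed under every alternative run, from -0.63 under quantile normalization to -2.16 with a pseudocount of 0.1. The change of GABBR1 differed by -1.42 (SE 0.40, 95% CI -2.29 to -0.55, adjusted p = 0.00887). For GABBR1 this did not hold under the median of ratios (-0.67, adjusted p = 0.212) or quantile normalization (-0.53, adjusted p = 0.287). The change of GABRA3 differed by -0.07 (adjusted p = 0.839).

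CHRM4, the Gi/o-coupled muscarinic receptor best known from striatum, had the highest TPM of the 5 muscarinic receptors in every library. In H146 it was at 44.1, 39.0 and 38.5 TPM untreated and 6.54, 4.51, 9.02 and 8.68 TPM treated. The treated libraries were all far below the untreated ones and again fell in their pairs. The mean went from 40.5 ± 3.08 (SD, n = 3) to 7.19 ± 2.09 TPM (SD, n = 4), a log2 difference of -2.38 (SE 0.22), or -2.63 relative to the median of all genes. Over the alternatives it ranged from -2.07 without treated replicates 1 and 2 to -2.69 without replicates 3 and 4.

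In H82 CHRM4 was at 20.2, 15.8 and 17.5 TPM untreated and 11.3, 19.0 and 12.7 TPM treated. The groups overlapped through treated replicate 2. The mean was 17.8 ± 2.21 and 14.3 ± 4.11 TPM (SD, n = 3 each), a log2 difference of -0.32 (SE 0.22), and the sign turned under the median of ratios (0.14) and quantile normalization (0.16). The change in H82 minus that in H146 was 2.06 (SE 0.32), given with no test.

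CHRM4 lies end to end with MDK, which encodes the growth factor midkine on the opposite strand, and GENCODE 44 gives 49 of its 3066 exon bases to MDK as well. Whether the reads were counted by strand is not stated, so reads in these bases could belong to either gene. MDK was added after values were seen, so its values are a description with no test. It rose in both lines, from 118, 82.9 and 117 TPM to 295, 263 and 260 TPM in H82 and from 33.7, 34.7 and 39.0 TPM to 187, 177, 262 and 269 TPM in H146. In H146 MDK thus moved against CHRM4, and the ratio of CHRM4 to MDK went from 0.988 to 1.31 to 0.0256 to 0.0351. A match to the DNA element of REST lies upstream of CHRM4. In H146 REST was at 0.254, 0.168 and 0.252 TPM untreated and 0.537, 0.520, 1.41 and 1.37 TPM treated. In H82 it was at 7.46 to 8.64 TPM untreated and 7.74 to 10.5 TPM treated. These values are per gene and do not separate the inactive REST4 splice forms, which the paper reports as reduced by FHD-286 in both lines. The part of REST in the level of CHRM4 was not tested.

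The makeup of the muscarinic receptors therefore differed between the lines after treatment. In H146 CHRM4 took 90.6% to 93.2% of the summed muscarinic TPM untreated and 43.8% to 48.4% treated, and CHRM3 6.01% to 7.92% and 26.99% to 43.2%. CHRM5, the other Gq-coupled receptor past the filter, took 0.618% to 1.22% and 9.10% to 26.5%. CHRM5 went from 0.531, 0.528 and 0.255 TPM to 2.85, 0.897, 3.78 and 5.09 TPM in H146. In H82 CHRM5 went the other way, from 3.43, 3.03 and 2.29 TPM to 0.246, 0.048 and 0.175 TPM. It passed the filter only through treated libraries in H146 and only through untreated ones in H82, so these values are a description with no test. In H82 CHRM4 took 55.3% to 63.6% untreated and 75.7% to 88.0% treated, and CHRM3 23.7% to 31.4% and 11.6% to 22.4%. The ratio of CHRM3 to CHRM4, a Gq to a Gi/o receptor, went from 0.0645 to 0.0874 to 0.586 to 0.945 in H146 and from 0.373 to 0.568 to 0.132 to 0.295 in H82. The groups of neither line overlapped in this ratio, and they lay in opposite order. CHRM4, chosen for its change, enters all these shares, so they are a description. CHRM1 and CHRM2 were at or under 0.779 TPM in all libraries.

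In untreated cells the order of the 8 genes was not the same in the 2 lines. H82 had CHRM4 (15.8 to 20.2 TPM) and GABBR1 (12.6 to 15.1 TPM) at the top, followed by CHRM3 (7.52 to 8.97 TPM), GABRA5 (2.12 to 2.87 TPM) and GABRB1 (1.30 to 2.08 TPM), and then GABRA2, GABBR2 and GABRB2. Neighbours in this order did not overlap, apart from GABRA2 (0.305 to 0.532 TPM) and GABBR2 (0.215 to 0.374 TPM). H146 had CHRM4 (38.5 to 44.1 TPM) and GABBR1 (23.97 to 29.4 TPM) at the top, then CHRM3 (2.48 to 3.41 TPM), GABBR2 (1.41 to 1.95 TPM) and GABRB1 (0.367 to 0.584 TPM). GABRA5, GABRA2 and GABRB2 were at or under 0.069 TPM there, and their ranges touched. With treatment GABBR1 became the highest of the 8 in H146 (21.8 to 48.6 TPM), while CHRM4 stayed the highest in treated H82 (11.3 to 19.0 TPM). These levels are per gene length as the authors took it.

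Genes that act with the receptors were read from 9 lists of 62 genes. In H82, 42 were tested, of which 21 were lower and 0 higher, beside 45.5% lower and 13.1% higher over all genes. Their median log2 fold change was -0.60, against -0.56 over all genes. At an unadjusted p under 0.05, limma gave 23 lower and 1 higher there, the latter in the phospholipase C list. In H146, 49 were tested, of which 9 were lower and 18 higher, beside 15.5% and 32.4% over all genes, with a median of 0.16 against 0.25. The counts per list below are to be read against the same shares. Some of these genes reached 1 TPM in 1 group alone and so had to differ, among them SLC12A5 and SLC6A13 (lower) in H82 and GNA14 and SLC6A13 (higher) in H146. The split in H82 depended on the scaling, with 7 higher against 13 lower after median-of-ratios scaling and 9 higher against 13 lower after quantile normalization. In H146 median-of-ratios scaling gave 15 higher and 14 lower.

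Beside the GABA-A receptor, 5 of 13 assembly and anchoring genes were lower in H82 and 0 higher, and 2 of 15 were lower and 7 higher in H146. LHFPL4, which clusters the receptor at synapses, fell the most in H82 (18.4 to 5.12 TPM, log2 -1.68, SE 0.21). SLITRK3, an adhesion protein of inhibitory synapses, rose the most in H146 (1.68 to 17.0 TPM, log2 2.71, SE 0.28), and HAP1, a trafficking partner of the receptor, fell the most (1.87 to 0.752 TPM, log2 -0.72), a call lost without untreated replicate 1 or 3 (adjusted p = 0.0578 and 0.0583). Chloride cotransporters set which way chloride flows through the channel. Of these, 2 of 3 were lower in H82. In H146 1 of 4 was lower and 2 higher: the importer SLC12A2 rose (4.63 to 28.3 TPM, log2 2.33) and the exporter SLC12A7 fell (50.7 to 25.5 TPM, log2 -0.99).

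Beside the GABA-B and Gi/o receptors, the auxiliary subunit KCTD12 fell in H82 (99.8 to 57.0 TPM, log2 -0.85) and rose in H146 (152 to 500 TPM, log2 1.44), where KCTD16 fell (22.2 to 11.3 TPM, log2 -0.92). Neither KCTD12 call held under the median of ratios (-0.37 and 1.12, adjusted p = 0.22 and 0.127), nor without any 1 untreated replicate of its line (adjusted p of at least 0.0723), nor in H146 without treated replicate 1 or 2, and the KCTD16 call was lost without untreated replicate 1 or 2 (adjusted p = 0.0595 and 0.0571). Gi/o alpha subunits had 1 of 5 lower in H82, GNAO1 (5.97 to 3.24 TPM, log2 -0.72), which was at 0.19 after quantile normalization and missed the threshold under the median of ratios and without untreated replicate 1 or 3. In H146 GNAI1 rose (1.70 to 13.8 TPM, log2 2.44), GNAI2 fell (109.6 to 56.2 TPM, log2 -0.96) and 3 did not pass. Of the 4 GIRK potassium channels, which GABA-B and CHRM2 or CHRM4 open, 1 passed the filter in each line and 0 passed the test, also at an unadjusted p under 0.05.

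Beside the Gq-coupled CHRM3, 5 of 10 genes of the phospholipase C and IP3 list were lower in H82 and 0 higher. ITPR2, an IP3-gated calcium channel, fell the most (15.9 to 1.56 TPM, log2 -2.72, SE 0.17), as CHRM3 did in that line. In H146 1 of 9 was lower and 3 higher, and ITPR2 rose the most (1.43 to 6.23 TPM, log2 1.57, SE 0.18), again with CHRM3, while PLCB4 fell (45.9 to 32.5 TPM, log2 -0.47), a call lost without untreated replicate 1 or 2 or treated replicate 1, 3 or 4 (adjusted p = 0.0573 to 0.123). RGS proteins shorten G protein signals. RGS2 and RGS4 were the 2 of 4 lower in H82, RGS2 the most (138.5 to 28.1 TPM, log2 -2.27), and in H146 2 of 4 were lower and 1 higher. There RGS16 fell the most (479.5 to 60.9 TPM, log2 -3.16), RGS7, named after its value was seen, fell too (59.0 to 8.11 TPM, log2 -2.76), and RGS4 rose (1.79 to 11.2 TPM, log2 2.11).

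The lists for transmitter supply also held genes of uptake and breakdown, and few of their genes were tested. All 3 genes of the GABA list tested were lower in H82, most of all ALDH5A1, of the GABA breakdown pathway (7.79 to 0.859 TPM, log2 -2.36). The others were uptake transporters, and no gene that makes GABA was tested there. In H146 3 of 6 genes of the GABA list were higher and 1 lower. There GAD2, which makes GABA, rose (4.68 to 15.3 TPM, log2 1.502) and SLC32A1, which loads it into vesicles, fell (11.1 to 1.40 TPM, log2 -2.40). Both genes of the acetylcholine list tested were lower in H82, most of all CHAT, the enzyme that makes acetylcholine (15.8 to 2.30 TPM, log2 -2.39). The other, BCHE, breaks acetylcholine down. In H146 0 of 2 passed (0 also at an unadjusted p under 0.05). Both of those were breakdown enzymes, and CHAT was under the filter.

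**Figure D3:**
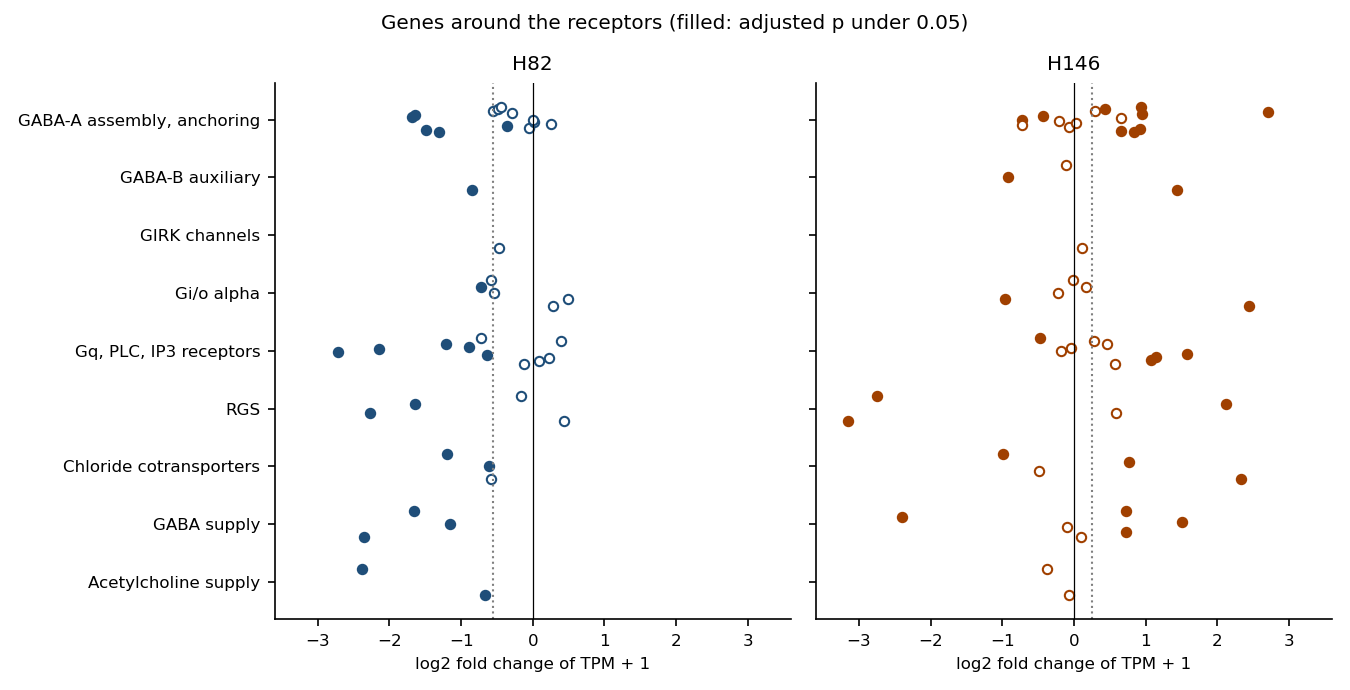
Log2 fold change of TPM + 1 under FHD-286 (horizontal axis) of each tested gene in the 9 lists around the receptors, in H82 (left) and H146 (right). Filled points have an adjusted p under 0.05, and the dotted line is the median of all genes. In H82 the filled points all lie below 0 in values as deposited (7 lie above 0 after median-of-ratios scaling), and in H146 they lie on both sides.

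The genes most alike to the 2 chosen receptors over the 13 libraries were named by the Pearson correlation of log2(TPM + 1). For GABRA2 they included MFSD4A (r = 0.97) and RPS14 (r = 0.96), of 15675 genes compared. For CHRM4 they were ZMAT4 (r = 0.96), FRMD3 (r = 0.96) and CPPED1 (r = 0.95), of 15674 genes. ZMAT4 went from 5.01 to 2.35 TPM in H82 and from 14.7 to 1.25 TPM in H146, so it fell beside CHRM4 in H146 and was lower in H82 too. The libraries form 4 groups that share line, treatment and scaling, so these are descriptions of shared level only.

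**Figure D4:**
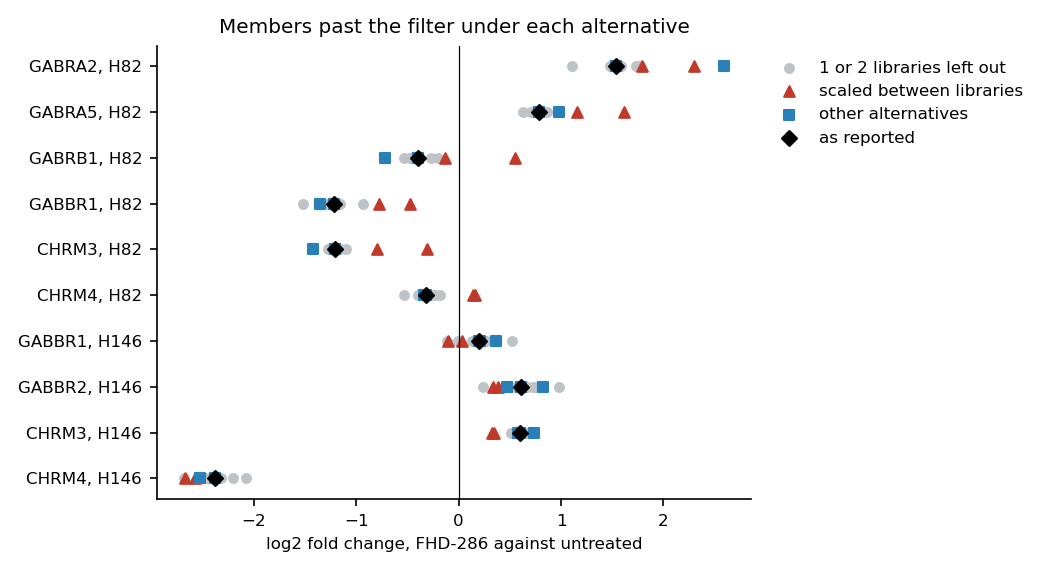
Log2 fold change under FHD-286 (horizontal axis) of each receptor gene of the list past the filter, as reported (black diamonds), scaled by median of ratios or quantiles (red triangles), under the other alternatives (blue squares) and with 1 or 2 libraries left out (grey points). CHRM4 in H146 stays below -2 in all, and CHRM4 in H82 and GABBR1 in H146 lie on both sides of 0.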

How the data were processed

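RNA sequencing of 13 libraries of H82 and H146 was analysed. The submitters' processing notes list Trim Galore 0.4.4, STAR and DESeq2, with hg38 as the build. Per the study's methods, the authors used STAR for mapping and gene counts (GENCODE annotation) and DESeq2 to compare groups, and no trimming step is given for RNA there. The deposited values are TPM, 1 table per line. Strand and gene length settings are not given in the sources used here, and depth is unknown. Dates stood in place of 29 symbols, and 4 rows with a shared symbol were left out.

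Each line was fitted with limma 3.58.1 in R 4.3.3 (eBayes with trend, pseudocount 1, at least 1 TPM in at least 3 libraries), since DESeq2 needs counts, which were not used here. Genes under the filter were compared with a two-sided exact permutation test of mean log2(TPM + 1), 5 tests in all. Its p doubles the smaller one-sided p. The smallest possible p was 0.1 in H82, and the smallest one-sided p in H146 was 0.0286. No such test in either line could thus fall under 0.05. Named were the 8 genes, the other receptor genes past the filter, GABRG1, GABRA4 and GABRG3 as neighbours, the largest rise and fall past the threshold in each list, and the 3 genes most correlated with GABRA2 and CHRM4. Some genes that this rule names are not reported here. MDK and REST were added after values were seen. The genes and lists were chosen with earlier results of these data known. Alternatives were a pseudocount of 0.1, no filter, median-of-ratios scaling, quantile normalization, a replicate block, eBayes without trend and each library left out. Leaving out 2 treated H146 libraries, and all alternatives of genes under the filter, were added after the data were seen. The fits were tested on simulated data. Python 3.11.15 with pandas 2.3.3, numpy 2.4.6, scipy 1.17.1 and matplotlib 3.10.9 was used. Other assays of the study were not analysed here.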

Additional observations from a re-analysis of the deposited data

Results flagged for a closer look

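The change under FHD-286 differed between the lines, by the limma interaction of line and treatment, for CHRM3 and GABBR1. These were the only 2 genes of the list tested this way. Over all genes, 58.3% of the 15675 tested passed the same threshold, so passing it does not set these 2 apart. H82 minus H146 was -1.80 (log2) for CHRM3 and -1.42 for GABBR1. CHRM3 kept this difference past the threshold in every alternative run for it, and GABBR1 did not under either scaling between libraries. CHRM3 fell in H82 and rose in H146, while GABBR1 fell in H82 and had a value in H146 that did not pass the test.

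Within treated H146, the CHRM3 value of replicate 2 (4.26 TPM) stood below the other 3 (5.11 to 5.28 TPM), with a gap of 0.833 of the group's range, just past Dixon's critical value for 4 libraries. Chance sets about 1 in 20 such groups apart. Without this library the log2 fold change of CHRM3 was 0.65 (limma adjusted p = 0.00844).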

How the results depend on the processing

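In H82, of 2 receptor genes called lower, 1 was left under the median of ratios and 0 under quantile normalization. The 1 called higher (GABRA5) was 0 with no filter and 0 to 1 with a library left out. In H146 the 1 called higher (CHRM3) was 0 under the median of ratios, quantile normalization or without treated replicates 3 and 4, 2 without treated replicates 1 and 2, and 0 to 2 with a library left out. Over all genes, the 8995 lower in H82 were 5550 under quantile normalization and 4290 to 9956 with a library left out, and the 2587 higher were 4792 and 5069 under the 2 scalings and 1675 to 3503 with a library left out. In H146 the 3033 lower were 4917 under the median of ratios and 1812 to 3729 with a library left out, and the 6354 higher were 4166 and 4285 to 7478. Lower genes made up 77.7% of calls in H82 (57.6% and 52.3% under the median of ratios and quantile normalization) and 32.3% in H146 (54.1% and 46.9%). The GABBR1 difference between lines was -0.67 and -0.53 under the 2 scalings, past no threshold. The causes were not tested.

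The sign turned for GABRA3 in H82 (0.0577 and 0.132 under the 2 scalings), GABRB1 in H82 (0.55, quantile), GABBR1 in H146 (-0.11 under the median of ratios, -0.00792 to 0.366 with a library left out, -0.115 without treated replicates 1 and 2), GABBR2 in H82 without treated replicate 2 (-0.0699, range to 0.762 with a library left out), GABRA5 in H146 without treated replicate 3 (-0.0265, to 0.0428), GABRB2 in H146 without treated replicate 1 (-0.00723, to 0.0284), and the GABRA3 difference between lines (0.66 and 0.70 under the 2 scalings, 0.148 without H82 treated replicate 1, 0.013 without H146 treated replicate 2, lowest -0.235 with a library left out). None of these was past the threshold as reported. GABRA3 passed it for the line difference under quantile normalization (adjusted p = 0.0286), and in H146 under the median of ratios (-0.61) and quantile normalization (-0.59).

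Replicate numbers did not pair the libraries: deviations of same-numbered libraries correlated at -0.0378 to 0.0269 in H82 and -0.111 to 0.0108 in H146. With the replicate block, H82 had 8623 genes lower and 2332 higher and H146 2378 lower and 4748 higher, and receptor genes called higher in H146 were 0 (CHRM3 0.58, adjusted p = 0.105). Since TPM carry no depth, zeros and values near 0, as for GABRB2, cannot be given a limit.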
